A study of Arabidopsis thaliana with 18 samples.

Results

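The flavonoid and anthocyanin genes described here are 10 genes, taken by their codes from the 32678 genes in the count files. They are the enzyme genes CHS (AT5G13930), CHI (AT3G55120), F3H (AT3G51240), F3'H (AT5G07990), FLS1 (AT5G08640), DFR (AT5G42800) and LDOX (AT4G22880), and the regulator genes PAP1 (AT1G56650), MYB12 (AT2G47460) and MYB111 (AT5G49330). Messenger RNA was counted in 18 libraries of whole rosettes of Arabidopsis thaliana, the model plant thale cress, at 3 weeks of age. The 6 groups were Col-S after ozone, Col-S control, Cvi-0 after ozone, Cvi-0 control, Col-0 after ozone and Col-0 control, with 3 biological replicates each. Ozone was given at 350 ppb for 2 h, and control plants received none. Cvi-0 is a natural accession from the Cape Verde islands, Col-0 is the standard laboratory accession, and the near-isogenic line Col-S has a Col-0 background with ozone sensitivity from Cvi-0. A replicate was a pool of 10 to 15 rosettes.

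Flavonoids are plant phenolic compounds that absorb ultraviolet light and include the colourless flavonols and the red to purple anthocyanins. Chalcone synthase (CHS) makes the first flavonoid skeleton from a coumaric acid thioester and malonyl units, chalcone isomerase (CHI) closes its ring, and flavanone 3-hydroxylase (F3H) and flavonoid 3'-hydroxylase (F3'H) add hydroxyl groups. Flavonol synthase (FLS1) leads to flavonols, whereas dihydroflavonol reductase (DFR) and leucoanthocyanidin dioxygenase (LDOX) lead to anthocyanins. In Arabidopsis the MYB factors MYB12 and MYB111 activate the early enzyme genes and FLS1, and PAP1, together with bHLH factors such as TT8 and the WD-repeat protein TTG1, activates the late genes.

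The stretches just upstream of the members were searched for sequences that such regulators are known to bind. A window of the 250 bases before the start of each gene in RefSeq (build TAIR10.1) was read on both strands for the G-box CACGTG, a palindrome bound by bZIP and bHLH factors, and for the MYB elements ACCTACC and ACCAACC. The G-box was present in 4 of 10 members, against 6.49% of 27443 protein-coding genes. The MYB elements were present in 0 of 10 members, against 3.79% of these genes. The windows of CHI, F3'H, FLS1, LDOX, PAP1 and MYB111 held none of these sequences. Of the 4 members with a G-box, CHS stands for the first step and DFR for the step that differed most between the accessions. MYB12 is the only regulator gene among them. The windows of CHS, DFR and MYB12 are shown, 5' to 3' on the strand of the gene. They lie at chr5:4488226-4488475 (plus strand), chr5:17166033-17166282 (minus strand) and chr2:19476076-19476325 (plus strand), and capitals mark the G-box.
CHS: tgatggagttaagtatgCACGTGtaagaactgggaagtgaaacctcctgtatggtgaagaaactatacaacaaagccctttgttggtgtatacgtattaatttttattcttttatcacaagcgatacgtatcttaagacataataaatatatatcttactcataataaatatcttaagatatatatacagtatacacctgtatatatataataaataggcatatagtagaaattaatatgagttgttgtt
DFR: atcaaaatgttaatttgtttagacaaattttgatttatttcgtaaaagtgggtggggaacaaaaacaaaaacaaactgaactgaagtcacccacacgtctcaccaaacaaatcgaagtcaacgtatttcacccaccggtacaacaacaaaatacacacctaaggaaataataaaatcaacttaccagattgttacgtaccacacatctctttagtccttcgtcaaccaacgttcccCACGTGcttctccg
MYB12: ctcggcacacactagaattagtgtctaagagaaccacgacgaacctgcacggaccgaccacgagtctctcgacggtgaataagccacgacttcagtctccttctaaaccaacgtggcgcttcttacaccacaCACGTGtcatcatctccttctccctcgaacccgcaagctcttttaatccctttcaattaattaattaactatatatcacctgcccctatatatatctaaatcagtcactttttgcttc
The G-box began 233 bases before the start in CHS, 14 bases before it in DFR and 118 bases before it in MYB12. It also began 249 bases before the start of F3H. The RefSeq start lies upstream of the start in the count files by 212 bases in CHS, 194 in MYB111, 155 in PAP1 and 127 in CHI. It does so by 124 bases in FLS1, 114 in DFR, 66 in F3'H and 11 in MYB12. The bases between these starts, and those further upstream, were not searched. The absence of a sequence therefore holds for the windows alone. A match describes letters in a window and says nothing of binding.

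The libraries held 14905841 to 26171613 counts each. Levels are given in CPM, counts scaled to the size of the library with TMM factors, and 3 counts, taken as the floor, stood for 0.115 to 0.201 CPM. Markers of the rosette leaf (RBCS1A, CAB3, RCA and GDCP1) were abundant in every library, with summed levels of 14200 to 17600 CPM in Cvi-0 after ozone and up to 43200 CPM in controls. The 3 root markers summed to at most 2.18 CPM with EXPA7 at 0 throughout, the 4 flower markers to at most 2.81 CPM, and the 3 seed markers to at most 0.192 CPM with SESA3 at 0 throughout. Genes were tested with edgeR's quasi-likelihood test in 1 fit of all libraries. Calls needed a Benjamini-Hochberg adjusted p below 0.05, taken over the 20622 genes that passed a minimum of counts. All adjusted p-values below are from edgeR unless another tool is named.

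Of the 10 members, 9 passed the minimum. F3H did not, with 0 to 11 counts per library. Its level was 0.259 ± 0.0735 CPM in Col-S after ozone and 0.400 ± 0.0833 CPM in Col-S controls, 0.148 ± 0.0800 CPM in Cvi-0 after ozone and 0.300 ± 0.0397 CPM in Cvi-0 controls, and 0.177 ± 0.185 CPM in Col-0 after ozone and 0.388 ± 0.0537 CPM in Col-0 controls (SD, n = 3 each). In the annotation, 94.5% of the F3H gene (chromosome 3, 19025192 to 19026872, plus strand) is overlapped on the opposite strand by the non-coding gene AT3G51238, which itself had 0 to 2 counts per library. Among 298 protein-coding genes overlapped over at least 90% of their span, the median of the mean level was 0.0196 CPM, against 6.80 CPM in 23042 coding genes with no overlap. The part of this overlap in the F3H values was not tested, and F3H is left out of the counts that follow. MYB12 passed the minimum only through the controls of Col-S and Col-0, where it was high, so counts and medians that include it are descriptions, and those of the ozone response are also given without it. PAP1 met the minimum in all libraries of each Col-S and Col-0 group, but of no Cvi-0 group. MYB111 did so in the controls of each genotype and in Col-0 after ozone, but not in Col-S or Cvi-0 after ozone. Counts that include PAP1 or MYB111 in comparisons with the groups that fell short are likewise descriptions.

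After ozone, the first enzyme of the pathway had lower transcript levels in all 3 genotypes. CHS (chromosome 5, 4488688 to 4490264, plus strand) had 31.1, 41.8 and 56.1 CPM in Col-S after ozone, against 228, 303 and 244 CPM in Col-S controls. In Cvi-0 it had 16.5, 31.1 and 24.2 CPM after ozone, against 144, 171 and 176 CPM in controls. In Col-0 it had 49.8, 95.2 and 69.0 CPM after ozone, against 171, 259 and 217 CPM in controls. Every ozone library was below every control library of its genotype. The log2 fold change of CHS, ozone over control, was -2.59 in Col-S (SE 0.27, adjusted p = 1.91e-07), -2.77 in Cvi-0 (SE 0.27, adjusted p = 8.40e-08) and -1.60 in Col-0 (SE 0.26, adjusted p = 4.82e-05). AT5G13940, which overlaps the last 2 bases of CHS on the other strand, had 0 to 4 counts per library, and adding its counts to those of CHS changed no call. CHI also fell in each genotype, to a smaller extent. It averaged 13.2 ± 3.82 CPM after ozone and 32.2 ± 7.77 CPM in controls of Col-S, 9.59 ± 2.88 CPM after ozone and 23.9 ± 1.38 CPM in controls of Cvi-0, and 10.3 ± 2.30 CPM after ozone and 20.4 ± 3.33 CPM in controls of Col-0 (SD, n = 3 each), with no overlap of values. Its log2 fold changes were -1.29, -1.32 and -0.99 in Col-S, Cvi-0 and Col-0, with adjusted p of 1.48e-04, 1.39e-04 and 0.00224. In whole rosettes, a fall in the number of cells of a type and a fall in RNA per cell cannot be told apart.

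FLS1 and MYB111 fell in each genotype, as CHS did. FLS1 had 5.42, 9.28 and 9.40 CPM in Col-S after ozone, against 28.8, 43.7 and 36.1 CPM in Col-S controls. In Cvi-0 it had 3.19, 7.88 and 6.13 CPM after ozone, against 22.5, 21.8 and 25.4 CPM in controls, and in Col-0 8.69, 14.9 and 11.2 CPM after ozone, against 22.9, 37.1 and 32.5 CPM in controls. The values did not overlap within any genotype, and the log2 fold changes were -2.18 in Col-S (SE 0.28, adjusted p = 2.97e-06), -2.02 in Cvi-0 (SE 0.29, adjusted p = 9.00e-06) and -1.41 in Col-0 (SE 0.27, adjusted p = 2.96e-04). MYB111, an activator of these genes, was a low-abundance transcript. It had 0.444, 1.01 and 0.953 CPM in Col-S after ozone, against 3.02, 4.02 and 3.36 CPM in Col-S controls. In Cvi-0 it had 0.114, 0.481 and 0.345 CPM after ozone, against 1.53, 2.51 and 2.80 CPM in controls, and in Col-0 0.835, 1.02 and 0.759 CPM after ozone, against 4.12, 2.46 and 4.13 CPM in controls. Again every ozone library was below every control. The log2 fold changes of MYB111 were -2.12 in Col-S (SE 0.34, adjusted p = 2.82e-05), -2.87 in Cvi-0 (SE 0.42, adjusted p = 8.97e-06) and -2.00 in Col-0 (SE 0.33, adjusted p = 5.47e-05).

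MYB12, the close relative of MYB111, had 0 to 16 counts per library. Its totals over 3 libraries were 9 counts after ozone and 44 in controls of Col-S, 4 after ozone and 21 in controls of Cvi-0, and 19 after ozone and 45 in controls of Col-0. The edgeR adjusted p was 0.00695 in Col-S, 0.0416 in Cvi-0 and 0.0449 in Col-0, with log2 fold changes of -2.08, -1.98 and -1.33. The call in Col-0 was lost when any 1 of 12 libraries was left out. These were every control of Col-0 and of Col-S, replicates 1 and 3 of Col-0 after ozone, replicates 2 and 3 of the Cvi-0 controls, replicate 1 of Cvi-0 after ozone and replicate 2 of Col-S after ozone. The log2 fold change was then -1.47 to -0.90, with edgeR adjusted p of 0.0502 to 0.164. It was also lost with no low-count filter (-1.34, adjusted p = 0.0615) and in a fit of only the groups compared (-1.32, adjusted p = 0.0727). That in Cvi-0 was lost when control replicate 1 (log2 fold change -1.57), ozone replicate 1 (-1.77) or ozone replicate 3 (-1.45) of Cvi-0 was left out, with edgeR adjusted p of 0.117 to 0.140.

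DFR and LDOX, the anthocyanin enzymes among the members, fell in Col-S, and in the main fit no fall of either passed edgeR's test in Cvi-0 or Col-0. With a term for the replicate number, the replicate block given below, edgeR called both lower in Col-0. The log2 fold changes were then -0.70 for DFR (adjusted p = 0.00982) and -0.65 for LDOX (adjusted p = 0.0283). DFR had 9.81, 19.8 and 25.5 CPM in Col-S after ozone, against 57.4, 105 and 59.4 CPM in Col-S controls. In Cvi-0 it had 1.08, 3.31 and 1.72 CPM after ozone, against 0.891, 3.06 and 1.83 CPM in controls. In Col-0 it had 17.3, 41.8 and 32.7 CPM after ozone, against 41.1, 59.1 and 41.5 CPM in controls. The groups were apart in Col-S, interleaved in Cvi-0 and overlapped in 1 ozone library in Col-0. The log2 fold change was -2.01 in Col-S (SE 0.40, adjusted p = 2.37e-04), -0.00 in Cvi-0 (95% interval -0.86 to 0.86) and -0.63 in Col-0 (-1.43 to 0.18, adjusted p = 0.173). LDOX had 6.46, 21.8 and 21.1 CPM in Col-S after ozone, against 53.5, 101 and 55.0 CPM in Col-S controls. Its log2 fold change there was -2.09 (SE 0.46, adjusted p = 7.00e-04), with no overlap. Its log2 fold change was -0.15 in Cvi-0 (interval -1.32 to 1.03) and -0.57 in Col-0 (-1.50 to 0.36), where ozone and control values overlapped. F3'H, which adds a hydroxyl group to precursors of both branches, followed DFR and LDOX. It averaged 5.85 ± 2.57 CPM after ozone and 20.4 ± 10.1 CPM in controls of Col-S, and its log2 fold change was -1.82 (SE 0.42, adjusted p = 9.34e-04). In Cvi-0 and Col-0 the log2 fold changes of F3'H were 0.11 (interval -0.94 to 1.15) and -0.37 (-1.20 to 0.46).

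The regulator PAP1 had 0.937, 2.02 and 0.885 CPM in Col-S after ozone, against 7.70, 12.9 and 7.04 CPM in Col-S controls. In Cvi-0 it had 0.0570, 0.722 and 0.138 CPM after ozone, against 1.15, 1.42 and 0.407 CPM in controls, and in Col-0 0.884, 4.01 and 2.66 CPM after ozone, against 6.00, 9.61 and 4.80 CPM in controls. The groups overlapped only in Cvi-0, where Cvi-0 ozone replicate 2 lay above control replicate 3. The log2 fold change of PAP1 was -2.81 in Col-S (SE 0.52, adjusted p = 1.32e-04), -1.70 in Cvi-0 (SE 0.82, adjusted p = 0.0742) and -1.42 in Col-0 (SE 0.48, adjusted p = 0.0170). The Col-0 call was lost without Col-0 control replicate 2 (log2 fold change -1.08, edgeR adjusted p = 0.0907) or Col-0 ozone replicate 1 (-1.03, edgeR adjusted p = 0.0767). In Cvi-0, PAP1 passed with DESeq2 (-1.64, adjusted p = 0.0213) and in a fit of only the groups compared (-1.65, adjusted p = 0.0457). It also passed with edgeR when Col-0 ozone replicate 1 (-1.70), Cvi-0 control replicate 3 (-2.06) or Cvi-0 ozone replicate 2 (-3.35) was left out.

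**Figure D1:**
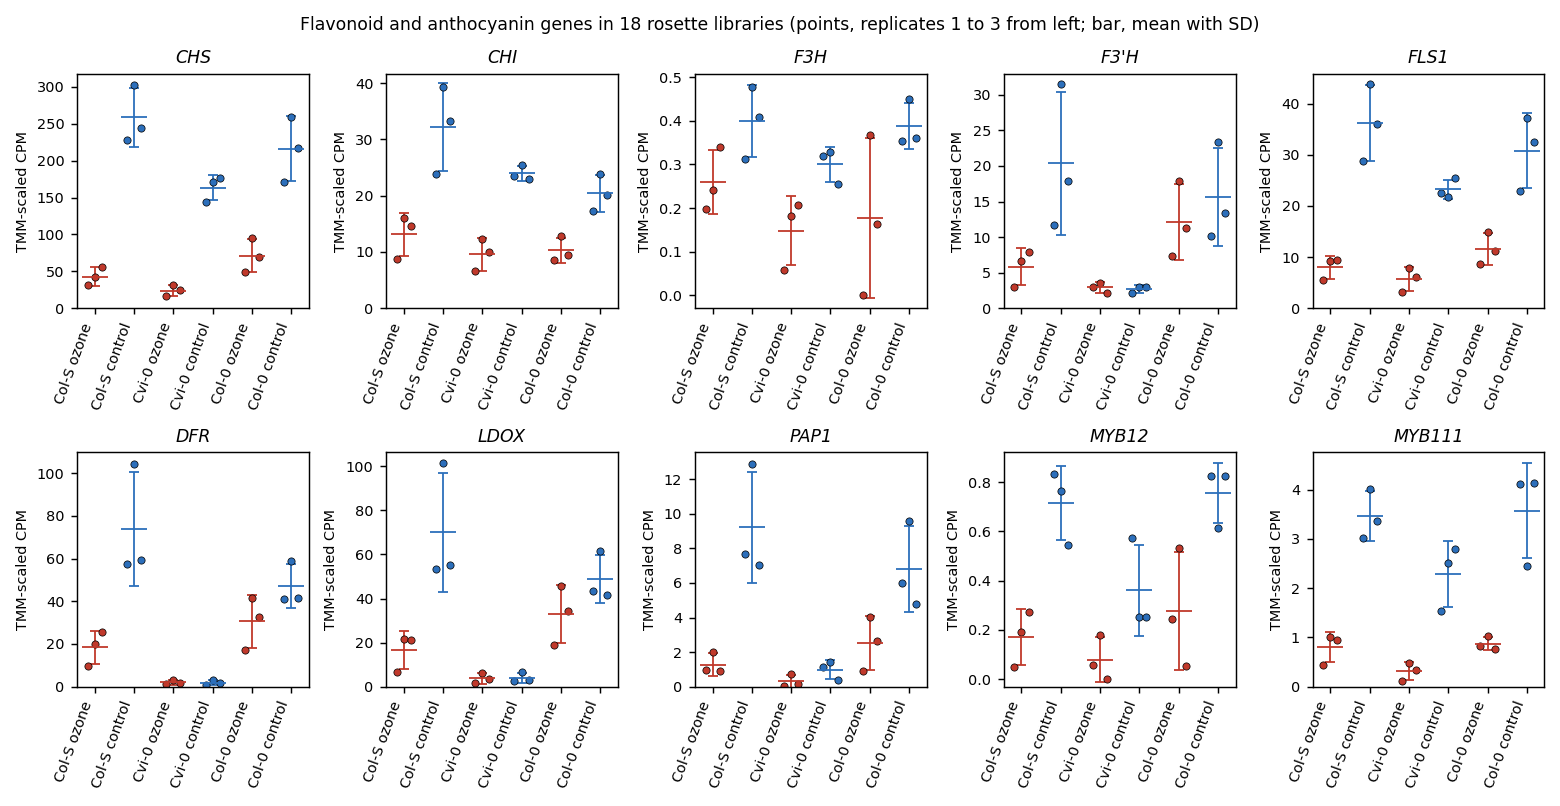
TMM-scaled CPM (vertical axes, linear, each gene on its own scale) of the 10 members in the 6 groups, with a point for each library and bars for the mean and SD. CHS, CHI, FLS1 and MYB111 were lower after ozone in each genotype, whereas DFR, LDOX and F3'H were low in Cvi-0 with and without ozone.

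Counted over the members, 9 of 9 tested were called lower after ozone in Col-S, against 34.0% of all tested genes (68.3% in either direction). In Cvi-0, 5 of 9 were called lower, against 36.1% of all genes (70.6% in either direction). In Col-0, 6 of 9 were called lower, against 27.5% (57.3% in either direction). Without MYB12 the counts were 8, 4 and 5 of 8. With all libraries, edgeR called MYB12 in none of the comparisons between genotypes below, so the counts there are the same without it, out of 8. In each genotype edgeR called 0 members higher, DESeq2 called 0, and 0 had a positive change at an unadjusted edgeR p under 0.05. The median log2 fold change of the 9 members was -2.09 in Col-S, -1.70 in Cvi-0 and -1.33 in Col-0, and that of all tested genes was -0.03, -0.05 and -0.02. Without MYB12 the medians were -2.10, -1.51 and -1.20. The summed leaf markers were also lower after ozone, at 18200 to 21400 CPM in Col-S, 14200 to 17600 CPM in Cvi-0 and 25000 to 32800 CPM in Col-0, against 37200 to 43200 CPM in all controls. The part of this shift in the member values was not tested.

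**Figure D2:**
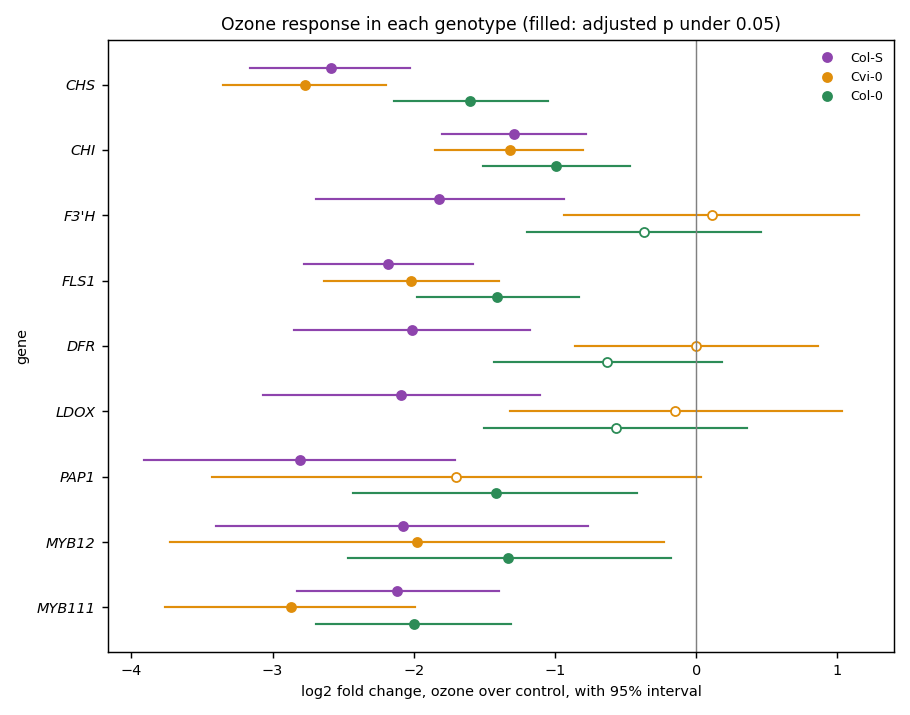
Log2 fold change, ozone over control, of the 9 tested members in Col-S, Cvi-0 and Col-0 (points) with 95% intervals (lines), filled where the adjusted p was under 0.05. All 9 Col-S points are filled, and the Cvi-0 points of F3'H, DFR and LDOX lie at 0.11, -0.00 and -0.15.

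Whether the genotypes differed in their response was tested as a difference of the log2 fold changes. These comparisons share their libraries with each other and with the responses above. Between Cvi-0 and Col-0, 1 of 9 members was called, CHS, with a steeper fall in Cvi-0 (difference -1.18, SE 0.36, adjusted p = 0.0274). A lower response was called for 10.3% of all tested genes in this comparison, and 21.4% were called in either direction. The CHS difference was not called when any 1 of 6 libraries was left out. Of Col-0 these were control replicate 1 (-1.03) and ozone replicate 2 (-0.91). Of Cvi-0 they were control replicates 2 (-1.15) and 3 (-1.12) and ozone replicates 1 (-0.97) and 3 (-1.17), with edgeR adjusted p of 0.0554 to 0.0944. Between Col-S and Col-0, edgeR called 0 of 9 members lower, against 0.325% of all genes (3.26% in either direction), and DESeq2 also called 0. All 9 differences were negative, -1.52 to -0.12, and 4 members had an unadjusted edgeR p under 0.05 (CHS, F3'H, DFR and LDOX). The difference of DFR was -1.39 (95% interval -2.53 to -0.24, adjusted p = 0.188) and that of CHS -0.99 (-1.75 to -0.24, adjusted p = 0.148). Between Col-S and Cvi-0, edgeR called 0 of 9 lower, against 2.20% of all genes (4.86% in either direction). DFR, LDOX and F3'H had differences of -2.01, -1.94 and -1.92 with unadjusted edgeR p of 0.00943, 0.0154 and 0.00856 and adjusted p of 0.117, 0.158 and 0.111. DESeq2 called 1 of these, F3'H (-1.94, adjusted p = 0.0240). A fit with a term for the replicate number, the replicate block given below, added members called lower in each of these comparisons of responses.

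Without ozone, DFR, LDOX, F3'H and PAP1 were far lower in Cvi-0 than in Col-0, and no difference passed the test for FLS1 or its activators MYB111 and MYB12. DFR averaged 1.93 ± 1.09 CPM in Cvi-0 controls and 47.2 ± 10.3 CPM in Col-0 controls (SD, n = 3 each), and its log2 fold change was -4.53 (SE 0.48, adjusted p = 1.50e-06). LDOX had 2.74, 6.48 and 2.80 CPM in Cvi-0 controls, against 43.5, 61.6 and 41.6 CPM in Col-0 controls (-3.56, SE 0.51, adjusted p = 5.23e-05). The values of both genes in Cvi-0 were below all those in Col-0. The log2 fold change was -2.75 for PAP1 (SE 0.54, adjusted p = 9.79e-04) and -2.53 for F3'H (SE 0.44, adjusted p = 3.83e-04), again without overlap. Together 4 of 9 members were called lower, against 11.8% of all tested genes (12.2% were called higher). This count includes PAP1, which passed the minimum through Col-0 and Col-S alone. The remaining 5 were not called. Their log2 fold changes were -0.40 for CHS (95% interval -0.93 to 0.13), 0.23 for CHI (-0.27 to 0.73), -0.41 for FLS1 (-0.97 to 0.15), -1.11 for MYB12 (-2.24 to 0.01) and -0.62 for MYB111 (-1.24 to 0.00). The 4 calls held in every alternative run, leaving out each library included.

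Col-S did not share this pattern of Cvi-0. In controls DFR averaged 73.8 ± 26.7 CPM in Col-S, higher than in Cvi-0 by 5.17 on the log2 scale (SE 0.48, edgeR), and LDOX, PAP1 and F3'H were higher by 4.08, 3.18 and 2.90. These 4 of 9 members were called higher, against 10.2% of all genes. CHS joined them with DESeq2 (0.67, adjusted p = 0.0441), without Col-0 ozone replicate 2 (0.69) and in a fit of only the groups compared (0.70), and FLS1 in that last fit (0.69). With the replicate block, CHS (0.66), FLS1 (0.61) and CHI (0.40) were called higher as well. Between Col-S and Col-0 controls edgeR and DESeq2 each called 0 members higher, against 0.339% of all genes, and 1, CHI, had an unadjusted edgeR p under 0.05. CHI averaged 32.2 ± 7.77 CPM in Col-S controls, 23.9 ± 1.38 CPM in Cvi-0 controls and 20.4 ± 3.33 CPM in Col-0 controls, and its log2 fold change of Col-S over Col-0 was 0.66 (SE 0.24, adjusted p = 0.418). CHI and F3H lie on chromosome 3 between 17 and 21 Mb. Among genes called and at least 2-fold different between the accession controls, 63.2% of the 87 in this stretch had a Col-S control level closer to that of Cvi-0, against 9.33% of 2207 in all the rest of the genome. The bounds of the stretch may rest on earlier results of these same data, so the shares are descriptions without a test.

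In controls, the summed level of the flower markers differed in the same direction as the anthocyanin genes. The 4 flower markers summed to 0.437 to 1.08 CPM in Cvi-0 controls, 1.68 to 2.81 CPM in Col-S controls and 1.94 to 2.58 CPM in Col-0 controls, with AP3 at 0 or 1 count in every library. After ozone the sums overlapped, at 0.337 to 1.04 CPM in Col-S, 0.722 to 0.965 CPM in Cvi-0 and 0.488 to 0.982 CPM in Col-0. AG, a floral identity gene, had 0.203 ± 0.148 CPM in Cvi-0 controls, 1.94 ± 0.532 CPM in Col-S controls and 1.96 ± 0.498 CPM in Col-0 controls (SD, n = 3 each). Over all libraries AG had 308 counts, SEP3 73, PI 53 and AP3 4, so the sums mostly follow AG and do not describe the other markers. The part of such RNA in the DFR and LDOX values was not tested. The leaf markers overlapped between the accessions, at 39000 to 43200 CPM in Cvi-0 controls and 40900 to 42900 CPM in Col-0 controls.

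After ozone, 7 of 9 members were lower in Cvi-0 than in Col-0, against 24.4% of all tested genes (24.6% were called higher and 49.0% in either direction). DFR (-3.91), LDOX (-3.14), PAP1 (-3.02) and F3'H (-2.05) again differed, joined by CHS (-1.58, SE 0.26, adjusted p = 1.05e-04), MYB111 (-1.49) and FLS1 (-1.03). CHS averaged 23.9 ± 7.27 CPM in Cvi-0 after ozone and 71.3 ± 22.8 CPM in Col-0 after ozone, with no overlap. FLS1 was not called without Col-0 ozone replicate 2 (-0.82) or Cvi-0 ozone replicate 1 (-0.73), and MYB111 was not called without the same libraries (-1.37 and -1.07). MYB12 (-1.77, adjusted p = 0.0940) passed without Col-0 ozone replicate 3 (-2.19) or Cvi-0 ozone replicate 2 (-3.01). Between Col-S and Cvi-0 after ozone, 4 of 9 were higher in Col-S, against 14.8% of all genes (28.6% in either direction). They were DFR (3.16), LDOX (2.13), MYB111 (1.34) and CHS (0.84). PAP1 joined them with DESeq2 (2.06, adjusted p = 0.00929) and, with edgeR, without Col-0 ozone replicate 1 (2.07) or Cvi-0 ozone replicate 2 (3.72). CHS was not called without ozone replicates 1 (0.63) or 3 (0.86) of Cvi-0 or Col-S ozone replicate 3 (0.61). MYB111 was not called when any 1 of 12 libraries was left out, with log2 fold changes of 0.92 to 1.43. These were all Col-0 libraries after ozone, all Col-S controls, replicates 2 and 3 of Col-S after ozone, replicates 1 and 3 of Cvi-0 after ozone, replicate 2 of the Cvi-0 controls and replicate 3 of the Col-0 controls. Between Col-S and Col-0 after ozone, edgeR called 0 of 9 lower, against 5.74% of all genes, 3 had an unadjusted edgeR p under 0.05 and DESeq2 called 1, CHS (-0.70, adjusted p = 0.0439). With edgeR, CHS passed in this comparison when ozone replicate 1 of Col-0 (-0.94), ozone replicate 1 of Cvi-0 (-0.73) or ozone replicate 3 of Col-S (-0.97) was left out, and F3'H when ozone replicate 1 of Col-0 (-1.34) was.

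**Figure D3:**
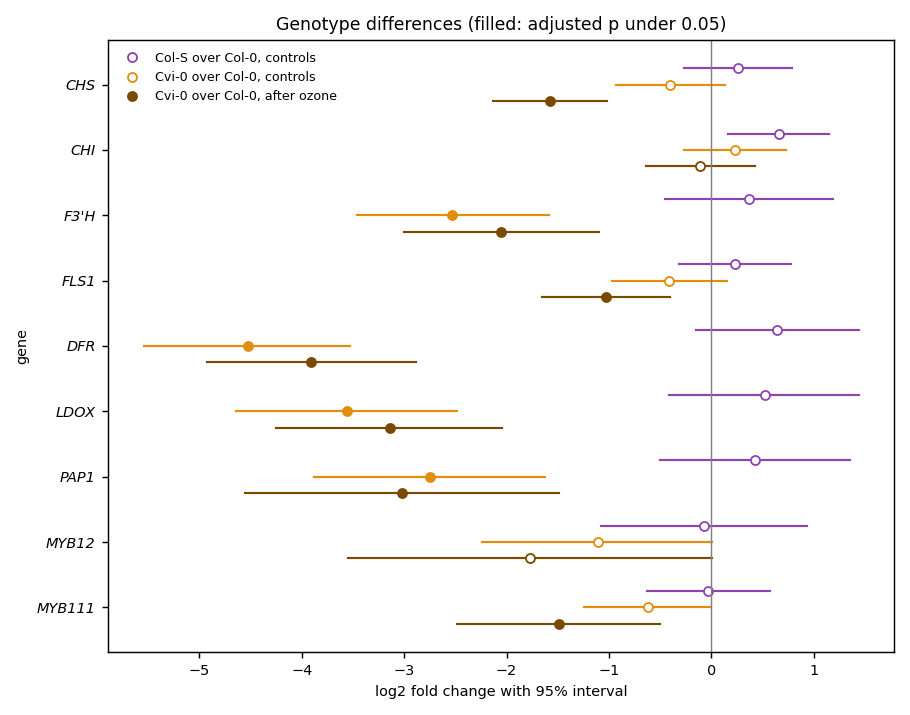
Log2 fold change with 95% interval of each tested member between Col-S and Col-0 controls, Cvi-0 and Col-0 controls, and Cvi-0 and Col-0 after ozone, filled where the adjusted p was under 0.05. F3'H, DFR, LDOX and PAP1 lie at -2.53, -4.53, -3.56 and -2.75 between the accession controls, and no point between Col-S and Col-0 controls is filled.

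The order of the 6 groups differed between members. For CHS it was Col-S control, Col-0 control, Cvi-0 control, Col-0 ozone, Col-S ozone and Cvi-0 ozone, from 259 to 23.9 CPM. In that order neighbouring controls overlapped and did not pass the test, nor did Col-0 ozone and Col-S ozone, although every Col-S control was above every Cvi-0 control. The steps from Cvi-0 control to Col-0 ozone (adjusted p = 5.33e-04) and from Col-S ozone to Cvi-0 ozone (adjusted p = 0.0219) were called. FLS1 had the same order, and its only called step was that between Cvi-0 control and Col-0 ozone (adjusted p = 0.00402). For DFR the order was Col-S control, Col-0 control, Col-0 ozone, Col-S ozone, Cvi-0 ozone and Cvi-0 control, and the only called step was that between Col-S ozone and Cvi-0 ozone (adjusted p = 9.21e-05). For LDOX the only called step separated Col-S ozone from Cvi-0 control (adjusted p = 0.00195), although the highest Cvi-0 control, 6.48 CPM, was above the lowest Col-S ozone library, 6.46 CPM. For MYB111 the called steps were Cvi-0 control to Col-0 ozone (adjusted p = 0.00152) and Col-S ozone to Cvi-0 ozone (adjusted p = 0.0459), and for CHI the step from Col-0 control to Col-S ozone (adjusted p = 0.0278). For PAP1 only the neighbours Col-0 control and Col-0 ozone differed (adjusted p = 0.0170), and no neighbours differed for F3'H or MYB12.

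Per kilobase of exon, CHS was the most abundant member in every group. In Col-0 controls its level was 127 ± 25.9 CPM per kb, that of LDOX 34.9 ± 7.87, of DFR 31.1 ± 6.75, of FLS1 19.0 ± 4.48 and of CHI 18.4 ± 3.00 CPM per kb (SD, n = 3). In Cvi-0 controls CHS stood at 96.1 ± 10.3 CPM per kb, CHI at 21.5 ± 1.24, FLS1 at 14.4 ± 1.19, LDOX at 2.86 ± 1.53 and DFR at 1.27 ± 0.714 CPM per kb. The anthocyanin enzymes thus stood above FLS1 in Col-0 controls and below it in Cvi-0 controls. The activators were low, with PAP1 at 6.14 ± 2.26, MYB111 at 2.19 ± 0.591 and MYB12 at 0.477 ± 0.0770 CPM per kb in Col-0 controls. Exon lengths were those of RefSeq, and levels per kb are approximate where the counted gene models differ.

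Across the 18 libraries, CHS was closest to FLS1 among the tested members, and DFR to LDOX. The Pearson correlation of log2 CPM was 0.988 between CHS and FLS1 and 0.983 between DFR and LDOX, but 0.521 between CHS and DFR. After the mean of each group was taken out, CHS and DFR had a correlation of 0.869, near the 0.928 of CHS and FLS1 and the 0.933 of DFR and LDOX. These points share the ozone treatment, the genotypes and the pools, and the correlations are descriptions without a test. Within groups, replicate 2 was the highest of its 3 libraries in 6 of 6 groups for CHI, LDOX and PAP1, in 5 for DFR, in 4 for CHS, F3H, F3'H, FLS1 and MYB111, and in 2 for MYB12. The 5 genes whose log2 CPM was most like that of CHS were APS2 (AT1G19920, an ATP sulfurylase, r = 0.992), AT5G41460 (0.991), FLS1, AT5G57330 (0.984) and PHT4;5 (AT5G20380, 0.983). Those most like DFR were 5MAT (AT3G29590, an anthocyanin malonyltransferase, r = 0.987), AT4G22753 (0.984), LDOX, TT19 (AT5G17220, a glutathione transferase needed for anthocyanin storage in the vacuole, 0.974) and AT2G18400 (0.969).

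Upstream of CHS, the general phenylpropanoid genes moved the other way under ozone. Of 7 genes, 6 were higher in each genotype, against 34.3% of all genes in Col-S, 34.5% in Cvi-0 and 29.8% in Col-0. PAL1, a phenylalanine ammonia-lyase, averaged 1345 ± 484 CPM after ozone and 155 ± 28.8 CPM in controls of Col-S, 1157 ± 130 CPM after ozone and 84.2 ± 15.9 CPM in controls of Cvi-0, and 843 ± 315 CPM after ozone and 145 ± 27.1 CPM in controls of Col-0. Its log2 fold changes in Col-S, Cvi-0 and Col-0 were 3.11, 3.78 and 2.54, those of PAL2 3.43, 3.48 and 2.51, those of the cinnamate hydroxylase gene C4H 2.69, 2.94 and 1.57, and those of the ligase gene 4CL1 1.65, 2.21 and 1.32. PAL3 was the exception, with -0.48, -1.26 and -0.23, called lower in Cvi-0. The ligase gene 4CL3, known to act in flavonoid synthesis, fell with CHS (-2.22, -1.87 and -1.48), as did CHIL, which codes for a non-catalytic partner of the early enzymes (-1.70, -1.03 and -0.77). These were the 2 called of 4 tested early genes beside the members. FLS2 and FLS3 were not called, with log2 fold changes of -0.70 to 0.18, and the other 3 FLS relatives were not tested.

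Of 6 tested genes of flavonol decoration, 2 were higher and 3 lower after ozone in Col-S, against 34.3% and 34.0% of all tested genes. In Cvi-0 2 were higher and 2 lower, against 34.5% and 36.1%, and in Col-0 2 and 2, against 29.8% and 27.5%. With so few genes these counts were near those shares. The glycosyltransferase genes UGT78D1 (-1.89, -1.92 and -1.44 in Col-S, Cvi-0 and Col-0) and UGT78D2 (-1.45, -0.99 and -0.61) fell. The methyltransferase gene OMT1 (1.96, 2.39 and 1.25) and the rhamnose synthase gene RHM1 (0.57, 0.80 and 0.42) rose. In Col-0, UGT78D2 was not called without Col-0 control replicate 2 (-0.46) or ozone replicates 1 (-0.45) or 3 (-0.54). RHM1 in Col-0 was not called without control replicate 1 (0.28) or ozone replicates 1 (0.38) or 3 (0.35). OMT1 and RHM1 also serve other pathways. UGT73C6 was not tested, and 90.2% of its gene is overlapped by another.

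Of 7 genes of anthocyanin decoration, 4 were lower and 1 higher in Col-S, against 34.0% and 34.3% of all tested genes. In Cvi-0 2 were lower and 2 higher, against 36.1% and 34.5%, and in Col-0 1 and 1, against 27.5% and 29.8%. With so few genes the counts in Cvi-0 and Col-0 were near those shares. SCPL10, an acyltransferase gene, fell in all 3 (-2.38, -2.37 and -1.60). The glycosyltransferase gene UGT75C1 fell in Col-S (-2.37) and Cvi-0 (-1.69), with -0.68 in Col-0. In Col-S, UGT79B1 (-2.73) and 5MAT (-2.31) also fell. In Cvi-0 the coumaroyltransferase genes 3AT1 (1.38) and 3AT2 (1.48) rose, and both responses differed with edgeR from those of Col-0 (adjusted p of 0.0210 and 0.0108) and of Col-S. The difference of 3AT1 from Col-0 was not called without Col-0 control replicate 2 (0.94, against 1.24 with it) or Cvi-0 ozone replicate 1 (1.13). BGLU10 rose in Col-0 (0.89) and in Col-S (0.52), where it was not called without control replicates 1 (0.48) or 3 (0.51) or ozone replicates 1 (0.51) or 2 (0.27). Of the 5 genes of late steps and transport, 2 were tested. TT19 fell in Col-S (-1.97), with -0.74 in Cvi-0 and -0.76 in Col-0, and the proton pump gene AHA10 fell in Cvi-0 (-1.53).

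Of 10 other activators tested, 4 were higher and 4 lower in Col-S, against 34.3% and 34.0% of all tested genes. In Cvi-0 4 were higher and 3 lower, against 34.5% and 36.1%, and in Col-0 4 and 4, against 29.8% and 27.5%. These counts were near the shares of all genes. They are descriptions where they include MYB11, which passed the minimum through controls alone. The same holds for MYB113, which fell short of it in the controls of Col-S and Col-0. PAP2 and MYB113, the relatives of PAP1, went against PAP1. MYB113 averaged 0.586 ± 0.643 CPM after ozone and 0.0666 ± 0.0578 CPM in controls of Col-S, 6.01 ± 1.28 CPM after ozone and 0.698 ± 0.184 CPM in controls of Cvi-0, and 0.891 ± 0.543 CPM after ozone and 0.0873 ± 0.0408 CPM in controls of Col-0. The controls of Col-S and Col-0 held 4 and 5 counts in all, so these folds are imprecise. MYB113 was called higher in each (3.10, 3.05 and 3.33). PAP2 was higher in Col-S (1.97) and Col-0 (2.38), with 0.78 in Cvi-0. Without Col-S ozone replicate 2, neither was called in Col-S (MYB113 1.57 and PAP2 1.06). These genes are similar neighbours of MYB114, and the counting could split reads among them. MYB11, a relative of MYB12, had 5 counts after ozone and 47 in controls of Col-S, 2 after ozone and 56 in controls of Cvi-0, and 0 after ozone and 55 in controls of Col-0. Its level was 8.43-fold lower in Col-S (exact 95% interval 3.37 to 27.2), 21.7-fold lower in Cvi-0 (5.73 to 184) and at least 19.1-fold lower in Col-0, taking 3 counts over the group as the floor. The light-signalling factor HYH (2.29, 1.97 and 1.76) and TTG1 (1.21, 0.94 and 0.99) rose in Col-S, Cvi-0 and Col-0. The bHLH gene EGL3 fell (-1.41, -1.99 and -0.57), and TT8 fell in Col-S (-1.36), with -0.96 in Cvi-0 and 0.32 in Col-0.

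Of 10 repressors, 3 were higher and 2 lower in Col-S, against 34.3% and 34.0% of all tested genes. In Cvi-0 5 were higher and 3 lower, against 34.5% and 36.1%, and in Col-0 3 and 2, against 29.8% and 27.5%. As for the activators, these counts were near the shares of all genes. MYB7 was higher in each (3.71, 4.07 and 2.67), as was the nitrate-responsive LBD38 (0.86, 0.56 and 1.43), which in Cvi-0 was not called without Cvi-0 control replicate 1 (0.35). SPL9, which represses anthocyanin genes by disturbing the MYB complex, was lower in each (-1.65, -2.09 and -1.69). MYB32 was higher in Col-S (1.40) and Cvi-0 (2.43), and CPC in Col-0 (0.82), where it was not called without Col-0 control replicate 3 (0.61). MYB4 rose in Cvi-0 (1.52), with -0.32 in Col-S and -0.20 in Col-0, and its response in Cvi-0 differed from that in Col-0 by 1.72 (SE 0.28, adjusted p = 4.99e-04).

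**Figure D4:**
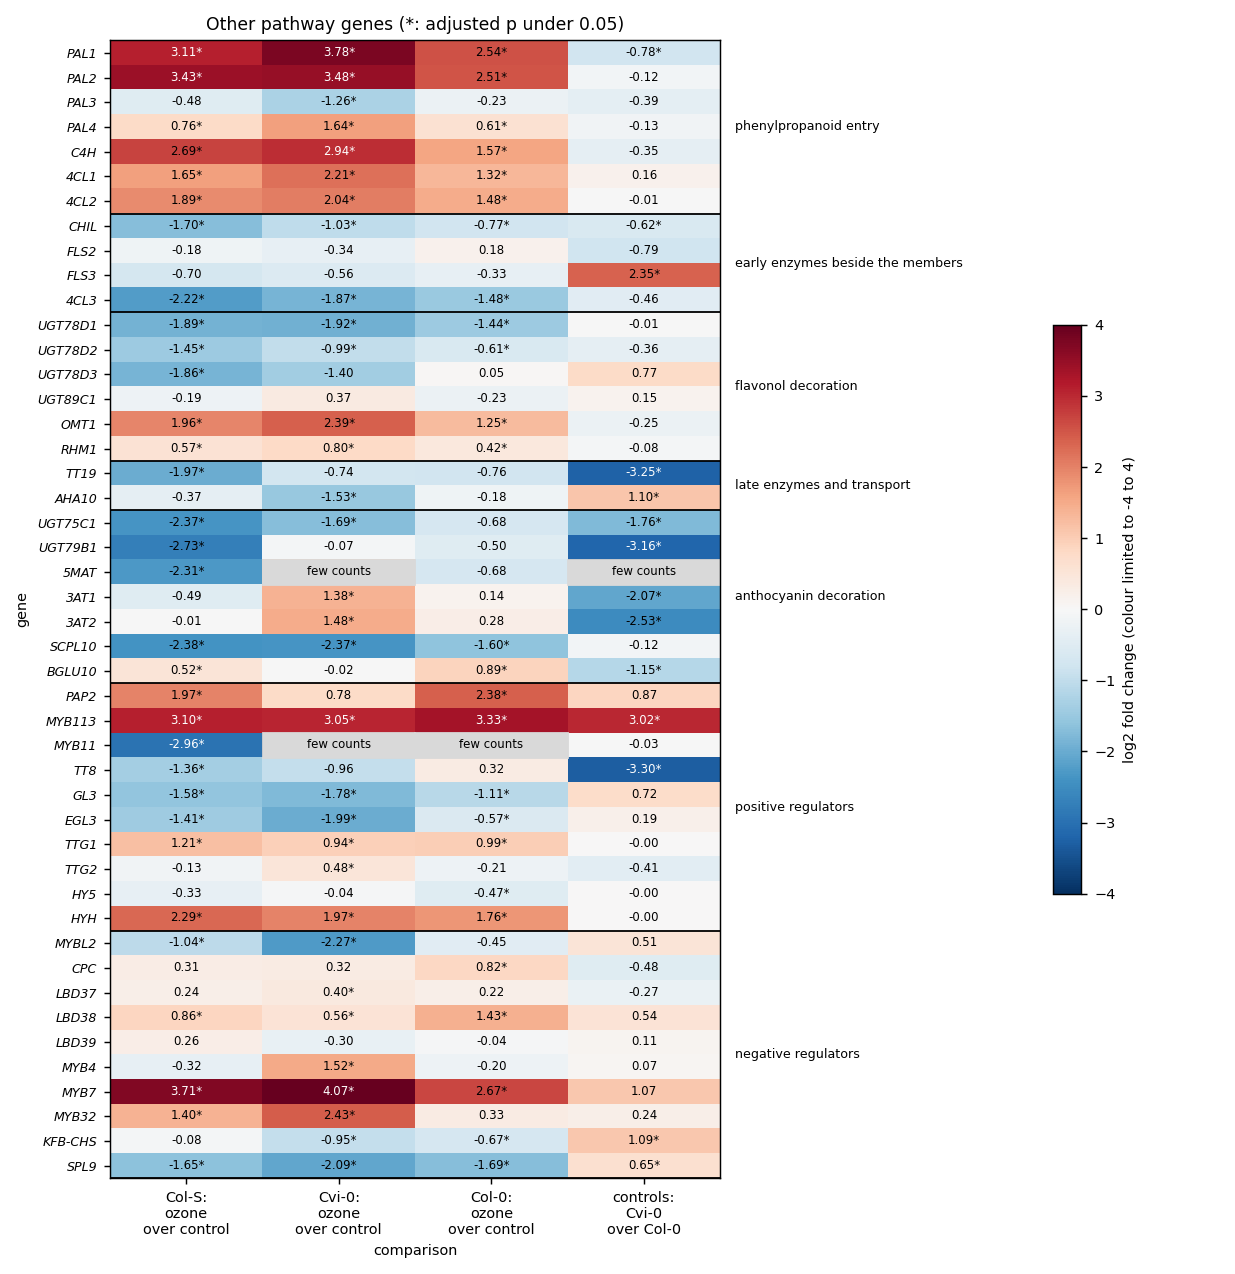
Log2 fold changes of the tested pathway genes other than the members after ozone in Col-S, Cvi-0 and Col-0 and between Cvi-0 and Col-0 controls, with an asterisk for an adjusted p under 0.05 and grey where a group held at most 3 counts. PAL1, PAL2 and C4H are red in all ozone columns, and most anthocyanin decoration genes are blue between the controls.

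Between Cvi-0 and Col-0 controls, most genes of anthocyanin decoration were lower. Of 7 genes of anthocyanin decoration, 6 were called lower, against 11.8% of all tested genes. This count includes 5MAT, which was nearly absent in Cvi-0 and passed the minimum of counts through Col-0 and Col-S alone, so it is a description. Of 6 tested genes of flavonol decoration edgeR and DESeq2 called 0 in either direction, with 0 at an unadjusted edgeR p under 0.05, and at 11.8% lower and 12.2% higher among all genes a count of 0 of 6 is near the background. TT19 (-3.25, SE 0.38), TT8 (-3.30, SE 0.42), UGT79B1 (-3.16, SE 0.50), 3AT2 (-2.53, SE 0.23), 3AT1 (-2.07, SE 0.27) and UGT75C1 (-1.76, SE 0.42) were lower. 5MAT had 1 count in the 3 Cvi-0 controls and 459 in the 3 Col-0 controls, a 474-fold lower level (exact 95% counting interval 84.7 to 18775). After ozone it had 2 counts in Cvi-0 and 296 in Col-0, 114-fold lower (31.3 to 945). MYB113, by contrast, was higher in Cvi-0 controls (3.02, SE 0.91, adjusted p = 0.0224), as were FLS3 (2.35, SE 0.28) and AHA10, which averaged 3.83 ± 0.323 CPM in Cvi-0 controls and 1.79 ± 0.50 CPM in Col-0 controls (SD, n = 3 each). The MYB113 difference was not called without Col-0 control replicates 2 (2.63) or 3 (3.19) or Cvi-0 control replicate 2 (2.75). TTG1 (-0.00), EGL3 (0.19) and HYH (-0.00) were not called.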

How the data were processed

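The deposited files hold raw counts of reads per gene and library. The submitters' processing notes list HTSeq, TopHat2, SAMtools and FastQC and the build TAIR10, but the sources used here state no versions, counting mode or strand setting. TAIR10 is the Col-0 genome, and how sequence differences change the counts of Cvi-0 was not tested. The kit, TruSeq RNA version 2 per the labels' protocols, does not mark strand, so reads of genes that overlap on opposite strands cannot be told apart. The 279 organelle genes have 0 counts.

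Genes were filtered with filterByExpr (minimum count 10, equal to 0.532 CPM) and scaled by TMM. The test was that of edgeR 4.0.16, which uses limma 3.58.1, under R 4.3.3. The fit had a mean for each of the 6 groups and 12 residual degrees of freedom, and was tested on simulated data. SE is the log2 fold change divided by the square root of F. Floors and counting intervals cover counting error only. The labels call the replicates biological, and replicates of a group differed by more than counting noise (chi-square per degree of freedom of 9.89 or more).

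Alternatives were DESeq2 1.42.0, RLE size factors, no low-count filter, a replicate block, only the groups compared, leaving out each library, and CHS summed with AT5G13940. Leaving out replicate 2 of every group, and the alternatives for the pathway lists, were chosen after seeing the data. The members and lists were chosen with earlier results of these data known. All members are named, and from each list up to 4 tested genes with the smallest p in the ozone response of each genotype, with the 5 genes most like CHS and the 5 most like DFR. UGT73C6, named for its overlap, and PAL3, the exception of its list, were chosen after their values were seen. Overlaps between genes were found with GenomicRanges 1.54.1. Promoter windows were read from the RefSeq TAIR10.1 genome, in which all 31912 shared gene codes lie at overlapping positions on the same strand.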

Additional observations from a re-analysis of the deposited data

Results flagged for a closer look

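The ozone response of CHS differed between the accessions in the test of the difference itself. The log2 fold change of CHS was -2.77 in Cvi-0 and -1.60 in Col-0, and the difference was -1.18 (SE 0.36, edgeR adjusted p = 0.0274). It was negative in all 18 runs that left out 1 library, and was not called in 6 of them, with edgeR adjusted p of 0.0554 to 0.0944.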

How the results depend on the processing

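All 24 counts of members called stayed within 1.5 times of the value reported with RLE size factors, no low-count filter, only the groups compared, or CHS summed with AT5G13940. With DESeq2 1 member was lower for the response of Col-S against Cvi-0 and 1 for Col-S against Col-0 after ozone, against 0 and 0 with edgeR. Without replicate 2 of every group, and in 6 of 18 runs without 1 library, the count for the response of Cvi-0 against Col-0 was 0 in place of 1 (range 0 to 1). Leaving out 1 library gave 0 to 2 members lower for Col-S against Col-0 after ozone, and 2 to 5 higher for Col-S against Cvi-0 after ozone. With the replicate block, the members called were 5 lower for the response of Col-S against Col-0, 2 lower for Cvi-0 against Col-0 and 3 lower for Col-S against Cvi-0. They were 1 higher for Col-S against Col-0 controls, 7 higher for Col-S against Cvi-0 controls, 5 lower for Col-S against Col-0 after ozone and 8 higher for Col-S against Cvi-0 after ozone. DFR, LDOX and F3'H were among those lower for the response of Col-S against Col-0 (adjusted p 0.0183, 0.0184 and 0.0144) and were those lower against Cvi-0 (0.00705, 0.00756 and 0.00411). With the block DFR and LDOX were also lower after ozone in Col-0 (adjusted p 0.00982 and 0.0283), and PAP1 in Cvi-0 (0.0143). The labels do not say that a replicate number marks a shared batch. Deviations from group means correlated positively in all 45 pairs of libraries with the same number (lowest 0.040, median 0.175), and over 0.1 in 35 of them. The 90 pairs with other numbers had a median of -0.107. Deviations from a group mean cancel out within the group, so these pairs turn negative where same-number pairs are positive. Their median is thus no separate comparison. The main fit has no replicate block, so the calls that the block adds are given only as an alternative. Among values of the genes named from the pathway lists, leaving out 1 library ended 88 calls and added 45 of 4212, and none reversed. Without Col-S ozone replicate 2 the activators called higher in Col-S were 2 in place of 4, and without Col-0 control replicate 2 or Col-0 ozone replicate 1 those called lower in Col-0 were 2 in place of 4. The causes of these changes were not tested. Low counts limit the values of MYB12, F3H and MYB11, which had at most 24 in any library. For F3H, the parts of depth and of the overlap with AT3G51238 in these low counts were not tested.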
